A study of Trichoderma reesei with 6 samples.

Results

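Of 9129 gene models of Trichoderma reesei, 4 had a higher level in xylose replicate 3 than in replicate 2, and a higher level in replicate 2 than in replicate 1, by at least 2-fold from the lowest to the highest library and at a moderate level. They are fgenesh5_pg.C_scaffold_8000316, fgenesh5_pg.C_scaffold_12000224, fgenesh5_pg.C_scaffold_8000176 and fgenesh5_pg.C_scaffold_11000128. The members were chosen by their measured FPKM, which is the number of fragments divided by the length of the model and by the total of the library. The mean over the xylose libraries had to lie from 10 to under 150 FPKM and the mean over the glucose libraries from 1 to under 300 FPKM. The ratio of the xylose mean to the glucose mean had to be above 0.25, and models of scaffolds 7, 29 and 33 were left out. The levels in xylose and the ratio between the sugars are therefore the basis of the choice and are given as a description. Counting intervals on them give the precision of single values, and limma's calls are only counted beside the share over all models. Nothing in the labels orders the 3 xylose libraries by time or dose, so the order is one of replicate numbers alone.

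The RNA came from hyphae of strain HJ48, taken at an age of 4 days from anaerobic fermentation of glucose in 3 libraries and of xylose in 3 libraries. All 6 libraries share the strain, the age and the lack of oxygen. The title of the series speaks of recombinant strains and asks for the molecular basis of fermenting either sugar, and the labels give no construct. Whether the 3 libraries of a sugar came from separate cultures is not stated, so their spread may be technical. Library totals implied by the FPKM steps ran from 8887469 to 11449774 reads.

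Trichoderma reesei is a filamentous fungus known for secreting cellulases and xylanases. In fungi xylose is usually reduced to xylitol, oxidised to xylulose and phosphorylated to enter the pentose phosphate pathway, whereas glucose enters glycolysis directly. The names of the models come from gene prediction, and fgenesh is a program that predicts genes from genomic sequence. The table pairs no model with a product: 0 of the 9129 names matched an entry of the RefSeq gene table for strain QM6a, so no role is given for any of the 4 models. For the same reason no hyphal marker could be checked.

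The model with the highest level was fgenesh5_pg.C_scaffold_8000316, on scaffold 8 by its name and 207 nt long by the length implied by its values. It had 51.7, 76.9 and 120.2 FPKM in xylose replicates 1, 2 and 3. In glucose it had 20.1, 25.8 and 17.7 FPKM in replicates 1, 2 and 3. As deposited, every xylose library was above every glucose library, and the libraries of the 2 sugars did not overlap. The means were 83.0 ± 34.7 FPKM in xylose and 21.2 ± 4.2 in glucose (SD, n = 3), a ratio of 3.91. These levels rested on 115, 182 and 285 reads in xylose and on 37, 54 and 36 reads in glucose.

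With FPKM as deposited, the only one of the 4 with a lower mean in xylose than in glucose was fgenesh5_pg.C_scaffold_12000224, on scaffold 12, with an implied length of 870 nt. It had 40.4, 46.8 and 40.8 FPKM in glucose replicates 1, 2 and 3, on 312 to 411 reads. In xylose it had 7.06, 9.75 and 16.0 FPKM in replicates 1, 2 and 3, on 66, 97 and 159 reads. Even the highest xylose library was below the lowest glucose library. The means were 10.9 ± 4.6 FPKM in xylose and 42.6 ± 3.6 in glucose (SD, n = 3), a ratio of 0.256, just above the limit of 0.25. Without glucose replicate 1 the ratio fell below the limit and the model left the set, so that 3 members were found.

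The second model on scaffold 8, fgenesh5_pg.C_scaffold_8000176, was also short, with an implied length of 312 nt. It had 15.5, 19.1 and 32.8 FPKM in xylose replicates 1, 2 and 3, on 52, 68 and 117 reads. In glucose it had 6.85, 10.2 and 15.7 FPKM in replicates 1, 2 and 3, on 19, 32 and 48 reads. The sugars overlapped, since glucose replicate 3 lay slightly above xylose replicate 1. The means were 22.4 ± 9.1 FPKM in xylose and 10.9 ± 4.5 in glucose (SD, n = 3), a ratio of 2.06. This was the only one of the 4 models in which the glucose libraries also stood in the order of replicate 3, then 2, then 1, an order found in 9.56% of the 3566 models within the same level limits.

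The model nearest to the limit on fold was fgenesh5_pg.C_scaffold_11000128, on scaffold 11, with an implied length of 534 nt. It had 21.3, 21.5 and 44.3 FPKM in xylose replicates 1, 2 and 3, on 122, 131 and 271 reads. Replicates 1 and 2 were level and replicate 3 alone stood above them. In glucose it had 19.4, 20.4 and 12.6 FPKM in replicates 1, 2 and 3, on 92, 110 and 66 reads. As deposited, these glucose levels all lay below xylose replicate 1. The means were 29.02 ± 13.26 FPKM in xylose and 17.5 ± 4.2 in glucose (SD, n = 3), a ratio of 1.66.

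**Figure D1:**
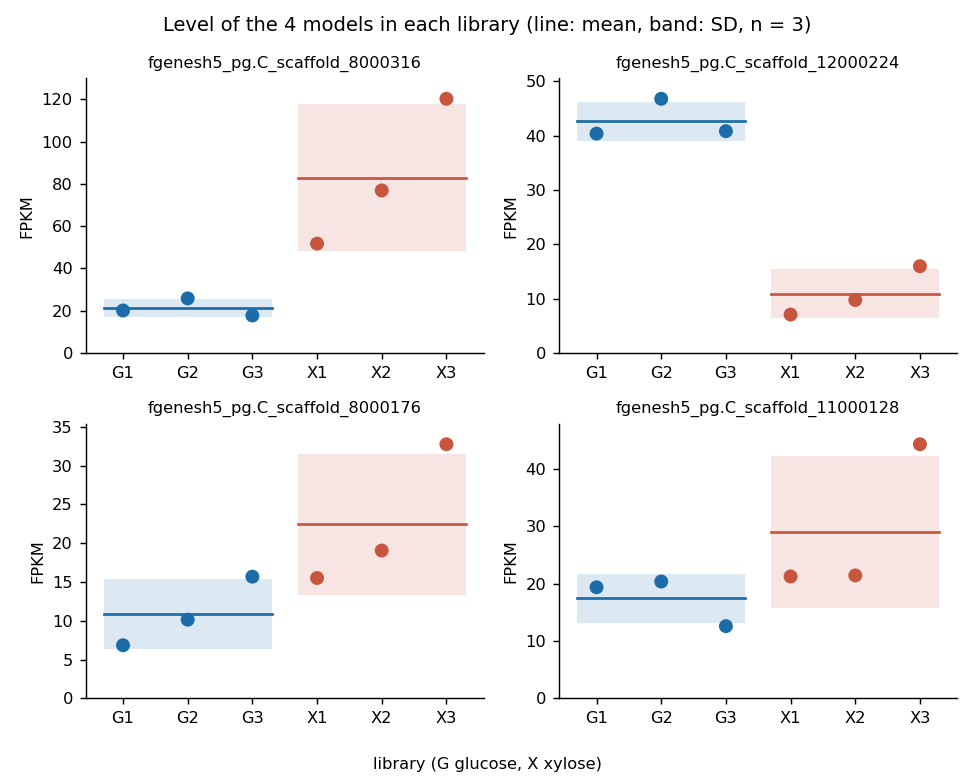
FPKM as deposited of the 4 models in the 6 libraries (points), with the mean (line) and SD (band) of the 3 libraries of each sugar; blue is glucose and red is xylose, and each panel has its own axis from 0. The 4 panels share the order of the xylose libraries that chose them, while glucose lies below the xylose libraries in fgenesh5_pg.C_scaffold_8000316, above them in fgenesh5_pg.C_scaffold_12000224 and below or near xylose replicate 1 in the other two.

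Replicate 3 was 2.32 times replicate 1 in fgenesh5_pg.C_scaffold_8000316 (95% exact counting interval 1.87 to 2.91). The ratio was 2.26 in fgenesh5_pg.C_scaffold_12000224 (1.69 to 3.06), 2.11 in fgenesh5_pg.C_scaffold_8000176 (1.51 to 2.99) and 2.08 in fgenesh5_pg.C_scaffold_11000128 (1.68 to 2.60). Each interval held the limit of 2, so that counting error alone could place each model on either side of it. The intervals cover counting error of 2 libraries, take no account of the choice of the models on these same values, and are no test of the order.

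The ratio of replicate 2 to replicate 1 was smaller than that of replicate 3 to replicate 2 in each of the 4. Replicate 2 was 1.49 times replicate 1 in fgenesh5_pg.C_scaffold_8000316 (1.17 to 1.89). The ratio was 1.38 in fgenesh5_pg.C_scaffold_12000224 (0.999 to 1.92), 1.23 in fgenesh5_pg.C_scaffold_8000176 (0.843 to 1.80) and 1.01 in fgenesh5_pg.C_scaffold_11000128 (0.782 to 1.30). The interval left out 1 in 1 model with FPKM as deposited and in 3 with the median of ratios, a scaling that takes out the shift common to most models, where its lower bound stayed under 1 in fgenesh5_pg.C_scaffold_11000128 (0.964). From replicate 2 to replicate 3 the ratios ran from 1.56 to 2.07.

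**Figure D2:**
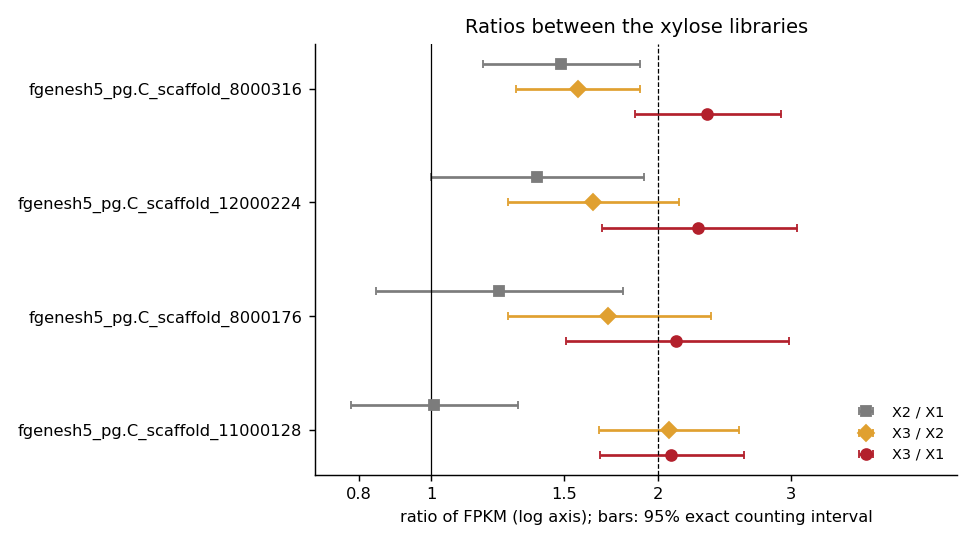
Ratios of FPKM between the xylose libraries for the 4 models (points) on a log axis, with 95% exact counting intervals from the implied reads (bars); the solid line marks 1 and the dashed line marks the limit of 2. The grey bars (replicate 2 over 1) reach 1 or below in 3 of the 4 models with FPKM as deposited, and each red bar (replicate 3 over 1) crosses the dashed line; the models were chosen on these values.

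On the log scale replicate 2 lay 47.0% of the way from replicate 1 to replicate 3 in fgenesh5_pg.C_scaffold_8000316. It lay at 39.5% in fgenesh5_pg.C_scaffold_12000224, at 27.5% in fgenesh5_pg.C_scaffold_8000176 and at 1.14% in fgenesh5_pg.C_scaffold_11000128. Replicate 2 was nearer to replicate 1 in 4 of 4 models, though with TPM or quantile normalization it came nearer to replicate 3 in 1. It was nearer to replicate 1 in 134 of the 242 models within the level limits that had the same order, and in 28 of the 45 among them with at least 1.5-fold, both of which include the 4.

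The order of the libraries in these models ran against that of most others with FPKM as deposited. Among the 3566 models within the same level limits, the median ratio of xylose replicate 3 to replicate 1 was 0.716. The highest ratio among these 3566 models was 2.36, in a model with another order of the libraries. The opposite order, replicate 1 above 2 above 3, held in 1945 of them (54.5%), and 641 had it with at least 2-fold. The order of the 4 models held in 242 (6.79%), with ratios from 1.02 to 2.32 and a median of 1.28. The model just outside the limit of 2 was fgenesh5_pg.C_scaffold_4000245, at 1.89 (16.8, 25.3 and 31.7 FPKM in replicates 1, 2 and 3), against 2.08 for fgenesh5_pg.C_scaffold_11000128 just inside.

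**Figure D3:**
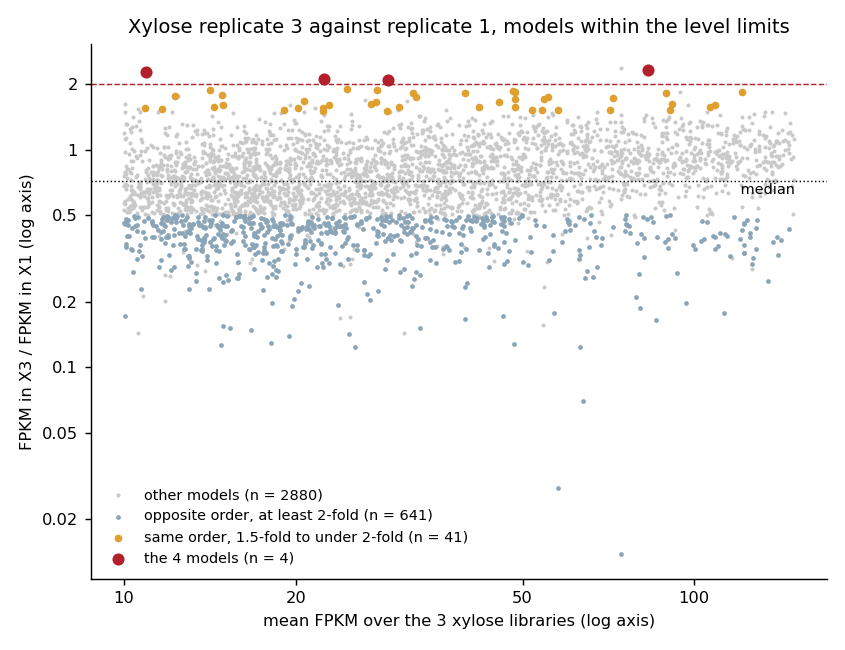
FPKM in xylose replicate 3 divided by that in replicate 1, against the mean of the xylose libraries, both on log axes, for the 3566 models within the level limits. The 4 models (red) lie just above the dashed line at 2, and the other 41 models with the same order and at least 1.5-fold (yellow) lie under it. The 641 models with the opposite order and at least 2-fold (blue) lie below 0.5. Other models (grey), which lack the order of the 4 or its fold, reach up to 2.36, above all 4. The dotted line is the median of 0.716.

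The limits on level left out most models with this order. Over the whole table the order held in 753 models and reached 2-fold in 109. Of these 109, 95 had a xylose mean under 10 FPKM, 51 of them under 1 FPKM where a few reads make a fold, and 6 had a mean of 150 FPKM or more. Of the 8 at a moderate level, 1 lay on a left-out scaffold, 1 had a glucose mean under 1 FPKM and 2 had a ratio of means of 0.25 or less, which leaves the 4 described here.

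How many models show this order depended on the scaling. The median model had a lower FPKM in xylose replicate 3 than in replicate 1, and scaling by the median of ratios takes that common shift out. It divides replicate 1 by 1.86, replicate 2 by 1.51 and replicate 3 by 1.29. With it the ratio of replicate 3 to replicate 1 was 3.36 in fgenesh5_pg.C_scaffold_8000316, 3.27 in fgenesh5_pg.C_scaffold_12000224, 3.05 in fgenesh5_pg.C_scaffold_8000176 and 3.01 in fgenesh5_pg.C_scaffold_11000128. The rule then found 77 models, 3 of the 4 among them, and 108 models had the opposite order with at least 2-fold. fgenesh5_pg.C_scaffold_12000224 was the one lost, since its ratio of means became 0.117.

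**Figure D4:**
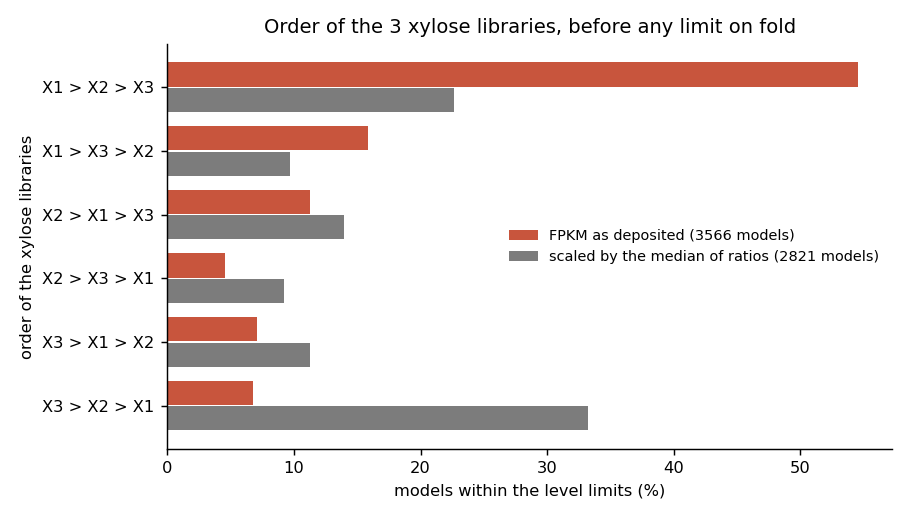
Share of models within the level limits (horizontal axis, %) in each of the 6 possible orders of the xylose libraries (vertical axis), with FPKM as deposited (red, 3566 models) and scaled by the median of ratios (grey, 2821 models). The order of the 4 models, at the bottom, goes from 6.79% to 33.2%, and the opposite order, at the top, from 54.5% to 22.6%.

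The rank of a model within its library does not depend on such a scaling, but it comes from the same FPKM that chose the models. The median FPKM of the library was 14.1, 11.2 and 8.76 in xylose replicates 1, 2 and 3. A model at a constant FPKM can therefore rise in rank, and the ranks are a description only. In fgenesh5_pg.C_scaffold_12000224 the share of all models with a lower FPKM was 35.1%, 46.7% and 63.5% in xylose replicates 1, 2 and 3, and 83.9% to 84.9% in glucose. In fgenesh5_pg.C_scaffold_11000128 it was 60.2%, 65.2% and 80.8% in xylose and 70.3% to 75.6% in glucose. Here xylose replicates 1 and 2 ranked below every glucose library and replicate 3 above them all. fgenesh5_pg.C_scaffold_8000176 ranked at 52.2%, 62.6% and 76.5% in xylose and from 60.3% to 73.4% in glucose. fgenesh5_pg.C_scaffold_8000316 ranked at 78.6%, 85.9% and 91.0% in xylose and from 74.9% to 78.5% in glucose.

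**Figure D5:**
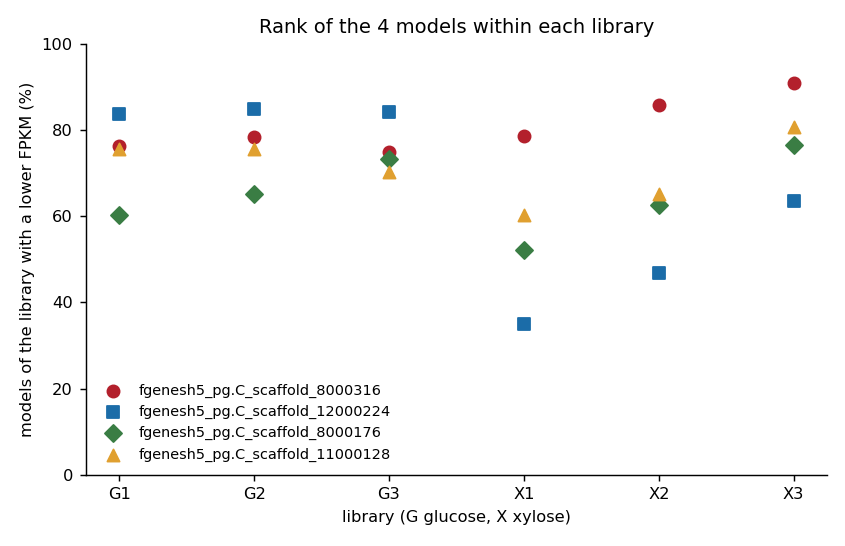
Share of all 9129 models with a lower FPKM in the same library (vertical axis, %) for the 4 models in the 6 libraries (horizontal axis). In all 4 models, which were chosen on these FPKM values, xylose replicate 3 has the highest rank of the xylose libraries. In fgenesh5_pg.C_scaffold_8000176 and fgenesh5_pg.C_scaffold_11000128 the glucose libraries lie within the span of the xylose libraries.

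Xylose was compared with glucose by limma on log2(FPKM + 1) over the 7766 models that reached 1 FPKM on average, where 64.8% were called higher in xylose and 14.1% lower at a Benjamini-Hochberg adjusted p under 0.05. Of the 4 models, 2 were called higher (fgenesh5_pg.C_scaffold_8000316 and fgenesh5_pg.C_scaffold_8000176), 1 was called lower (fgenesh5_pg.C_scaffold_12000224) and 1 was not called. The libraries of the sugars did not overlap in FPKM as deposited in 3 of the 4, against 81.4% of all tested models. Since the rule used this contrast, nothing is read from these counts. The median log2 fold change of the 4 was 0.81, beside 1.10 over all tested models.

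The directions of 2 of the models turned with the scaling, and with single libraries left out only calls moved. With the median of ratios the median log2 fold change of all tested models was 0.10 and that of the 4 was -0.33. The ratio of means then turned to 0.931 in fgenesh5_pg.C_scaffold_8000176 and 0.763 in fgenesh5_pg.C_scaffold_11000128, and stayed above 1 in fgenesh5_pg.C_scaffold_8000316, at 1.80, where limma no longer called it. The call of fgenesh5_pg.C_scaffold_8000176, with a log2 fold change of 0.98, was lost without glucose replicate 1 (0.71) and without glucose replicate 2 (0.97). fgenesh5_pg.C_scaffold_11000128 was called higher with TPM, without xylose replicate 1 or without xylose replicate 2. fgenesh5_pg.C_scaffold_12000224 was called lower under every scaling and with each library left out. With the median of ratios, 2980 of the 7766 tested models were called higher and 2721 lower.

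The spread within glucose was not used by the rule. The SD of log2(FPKM + 1) over the 3 glucose libraries was 0.54 in fgenesh5_pg.C_scaffold_8000176, larger than in 96.9% of the 1860 models whose glucose mean was within 2-fold of its own. It was 0.36 in fgenesh5_pg.C_scaffold_11000128 (larger than in 88.5% of 1700) and 0.26 in fgenesh5_pg.C_scaffold_8000316 (larger than in 76.7% of 1573). In fgenesh5_pg.C_scaffold_12000224 it was 0.12, below the median of 0.16 over 1202 models at a like level. These models were matched on FPKM and not on reads, and a short model has fewer reads at the same FPKM. The part of counting error in this spread was not tested. Glucose replicate 3 was 2.29 times replicate 1 in fgenesh5_pg.C_scaffold_8000176 (95% exact counting interval 1.32 to 4.13), on 48 and 19 reads.

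The 4 models are short and rest on few reads. Their implied lengths ran from 207 to 870 nt with a median of 423 nt, beside a median of 1320 nt within the level limits, where 27.8% of models were under 900 nt. Their median number of reads in xylose replicate 1 was 90.5, beside 480 within the limits. Of the 45 models with at least 1.5-fold, which include the 4, 24 were under 900 nt (53.3%). Of the 641 with the opposite order and at least 2-fold, a higher limit on fold, 28.4% were under 900 nt. The limit of 900 nt lies just above the longest of the 4, at 870 nt, so all 4 fall under it. The part of length and read number in the selection was not tested.

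All 4 names belong to the fgenesh5_pg series, which held 16.0% of the 3566 models within the limits. The series held 51.1% of the 45 models, which include the 4, and 11.5% of those with the opposite order.

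The glucose mean lay below all xylose libraries in 3 of the 4 models (0 with the median of ratios) and above them all in 1, beside 74.1% below and 15.5% above among the 3566 models within the limits. Among the 45 with at least 1.5-fold, which include the 4, it lay below in 24, within the xylose libraries in 9 and above in 12 (26.7%). Among the 641 with the opposite order and at least 2-fold, a higher limit on fold, it lay above in 13 (2.03%) and below in 540. No test was made of these differences, and the rule limits the ratio of the means in both sets.

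By their names, 2 of the 4 models lie on scaffold 8, 1 on scaffold 11 and 1 on scaffold 12, and 0 pairs of them have consecutive numbers. Of the 3566 models within the level limits, 171 lie on scaffold 8, 130 on scaffold 11 and 135 on scaffold 12. Position was not tested. The 45 models were spread over 26 scaffolds, with at most 4 on one. Next in number to fgenesh5_pg.C_scaffold_12000224 is fgenesh5_pg.C_scaffold_12000223, with an implied length of 387 nt, chosen for description after its values were seen. It had 90.2, 106.9 and 166.3 FPKM in xylose replicates 1, 2 and 3, a ratio of replicate 3 to 1 of 1.84 (95% exact counting interval 1.63 to 2.09). Its glucose values were 134.3, 169.8 and 141.0 FPKM. The pair thus shared the order of the xylose libraries, while the ratio of means was 0.816 in fgenesh5_pg.C_scaffold_12000223 and 0.256 in fgenesh5_pg.C_scaffold_12000224. The sources do not say if counting was by strand. Whether the models of this pair overlap, and how reads in such an overlap were counted, was not tested.

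The neighbours by number of the other models did not have this order with 1.5-fold. Neighbours were looked for only within 2 numbers in the same naming series, so models named in other series were not searched. fgenesh5_pg.C_scaffold_8000174, 2 numbers from fgenesh5_pg.C_scaffold_8000176, had 213.1, 215.5 and 270.3 FPKM in xylose replicates 1, 2 and 3, a ratio of replicate 3 to 1 of 1.27. fgenesh5_pg.C_scaffold_8000314, 2 numbers from fgenesh5_pg.C_scaffold_8000316, had 8.90, 7.26 and 5.38 FPKM, a ratio of 0.605. In fgenesh5_pg.C_scaffold_11000129 and fgenesh5_pg.C_scaffold_11000130, next to fgenesh5_pg.C_scaffold_11000128, the ratios were 0.938 and 0.951.

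Likeness of pattern was measured, by a rule set after the values were seen, as the root mean square difference of log2(FPKM + 1) over the 6 libraries after each model's own mean was taken off, among the models within the limits. The model most like fgenesh5_pg.C_scaffold_11000128 was fgenesh5_pg.C_scaffold_4000073, with a difference of 0.18 log2 units beside a median of 0.74 over 3565 models. The smallest of these differences lies below their median by construction. The differences also use the xylose values that chose the members, so no particular likeness is read from them. fgenesh5_pg.C_scaffold_4000073 had 37.3, 39.5 and 68.4 FPKM in xylose replicates 1, 2 and 3 and 24.4, 29.2 and 20.5 FPKM in glucose.

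The model most like fgenesh5_pg.C_scaffold_8000316 was fgenesh5_pg.C_scaffold_14000145, at 0.20 log2 units, with 22.0, 24.6 and 36.4 FPKM in xylose and 7.81, 10.3 and 7.08 FPKM in glucose. For fgenesh5_pg.C_scaffold_8000176 it was e_gw1.22.277.1, at 0.26, with 21.6, 21.5 and 36.4 FPKM in xylose and 8.49, 10.5 and 11.8 FPKM in glucose. For fgenesh5_pg.C_scaffold_12000224 it was fgenesh5_pg.C_scaffold_12000049, at 0.23, with 9.52, 8.21 and 12.5 FPKM in xylose and 35.5, 40.3 and 39.3 FPKM in glucose.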

How the data were processed

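The authors' deposited table gives FPKM for 9129 gene models in 6 libraries. Per the submitters' processing notes the tools were HTSeq 0.6.1, Bowtie2 2.2.3 and TopHat2 2.0.12, with no role stated; build and annotation were not given. The description of each sample named its column. Members and lists were chosen with earlier results of these data known. The models to name were those extreme within the set in fold, level or ratio, which names all 4.

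Library totals, lengths and reads were worked out from the steps between FPKM values, by requiring reads to be whole numbers and the length a whole number of 60 to 20000 nt (tolerance 1e-05 reads plus a relative 3e-09). This solved 9008 models and 99.1% to 99.3% of each total. A length is the smallest solution. Counting intervals are exact binomial intervals at 95%, and cover counting error only, since reads without molecular identifiers need not be separate molecules. log2(FPKM + 1) was fitted by sugar with limma 3.58.1 in R 4.3.3 (trend, two-sided) over models averaging 1 FPKM or more. Python 3.11.15 and SciPy 1.17.1 were used, and the scripts were tested on simulated data. Alternatives were other scalings (median of ratios, quantile, TPM), pseudocounts, filters, limits of the rule, a replicate block, voom and leaving out libraries.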

Additional observations from a re-analysis of the deposited data

How the results depend on the processing

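The number of models found, 4 as deposited, was 77 under the median of ratios and 90 under quantile normalization. It was 45 with a fold of at least 1.5, 0 with at least 3, 7 with a xylose mean from 5 FPKM, and 3 to 6 with a library left out. It could not be had without xylose replicate 1 or 3, which the rule needs. The 2 models called higher became 0 with the median of ratios (limma, also 0 at an unadjusted p under 0.05) and 1 with quantile normalization. Their number was 3 with TPM, 1 without a filter, and 2 with voom on recovered reads scaled to library totals. With a library left out it was 1 to 3. Of the 7766 tested models, 5035 were called higher as deposited, 2980 with the median of ratios, 2648 with quantile normalization and 5135 with TPM. Without a filter it was 5387 of 9129, with voom 4936 of 7764, and with a library left out 4664 to 5276. The model called lower was called under every setting run. Over all 7766, models called lower numbered 1095 as deposited, 2721 with the median of ratios, 2580 with quantile normalization and 1021 with TPM. The median log2 fold change of the 4 turned from 0.81 to -0.33 under the median of ratios and to -0.24 under quantile normalization. Under these scalings the glucose mean lay below xylose replicate 1 in 0 and 1 models and between replicates 1 and 3 in 3 and 2. Replicate 2 came nearer to replicate 3 in 1 model with quantile normalization and 1 with TPM. Median of ratios and quantile normalization take out a common shift by construction. The median SD of the 4 within glucose, 0.31, was 0.20 to 0.39 with a glucose library left out, lowest without replicate 3, and 0.21 under quantile normalization. The counting interval of replicate 2 over 1 left out 1 in 1 model as deposited and in 3 with the median of ratios, an alternative chosen after seeing the data. Few reads limit the precision of these ratios.

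A replicate block left 2 models called higher and 1 lower, with a median of 0.81, beside 5034 higher and 1067 lower of all 7766 tested. Across tested models, deviations from the group means correlated between same-numbered libraries at 0.001, -0.072 and 0.073. Some libraries correlated more with another number than with their own, and the labels tie no numbers together, so no pairing was assumed.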
